A study of Mus musculus with 2 samples.

Results

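Prrx1, Prrx2, Pitx1, Shox2, Alx1 and Alx4 are 6 homeobox genes of the paired class that are known from mesenchyme, the loose embryonic tissue that gives rise to skeleton and connective tissue. They were taken by name from the 43346 genes measured in embryonic mouse limb, and all of their 21 transcripts in the deposited tables were followed. The samples were limbs of B6NCrl embryos at embryonic day 13.5, with males and females pooled and no genetic change or treatment, which form 1 group of 2 total RNA libraries. The labels call these biological replicates 1 and 2, tie both to 1 donor entry but to separate tissue samples, and do not state whether forelimbs, hindlimbs or both were collected. Each library was made from 10 ng of RNA longer than 200 nucleotides with synthetic ERCC transcripts added, and the expected counts summed to 31927045 for replicate 1 and 43194454 for replicate 2. With 1 group, levels and differences between the 2 libraries could be described, and no condition could be compared. The spread between these libraries may be partly technical.

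Paired-class factors bind DNA through a homeodomain whose recognition helix lies in the major groove, and the residue at position 50 is known to set which bases next to the TAAT core are preferred. Prrx1 and Prrx2 act together in limb and face mesenchyme, Pitx1 gives the hindlimb its identity, and Shox2 is needed for the proximal limb skeleton. Alx4 acts in anterior limb mesenchyme, where it restrains ectopic Shh signalling, and Alx1 is known mainly from head mesenchyme. Several of these proteins end in an OAR motif, a short conserved tail named after otp, aristaless and rax, which alternative splicing can remove.

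The part of the homeobox for residues 41 to 60, which covers the recognition helix, is printed because it holds residue 50, at which Pitx1 differs from the other 5. It is shown 5′ to 3′ on the coding strand, read from the GENCODE M21 transcripts on mm10, with the codon for residue 50 in capitals, and residues are counted from 1 at the start of the homeodomain. In all 6 genes an intron splits this stretch, so its genomic span is longer than its 60 bases.
Prrx1 (chr1:163257901-163261857, minus strand): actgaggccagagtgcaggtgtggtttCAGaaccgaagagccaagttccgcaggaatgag
Prrx2 (chr2:30878574-30879533, plus strand): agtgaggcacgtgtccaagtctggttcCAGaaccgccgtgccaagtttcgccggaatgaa
Pitx1 (chr13:55826570-55828457, minus strand): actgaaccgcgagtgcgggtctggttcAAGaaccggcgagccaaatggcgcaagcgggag
Shox2 (chr3:66975869-66978203, minus strand): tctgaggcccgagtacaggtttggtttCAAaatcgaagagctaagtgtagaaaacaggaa
Alx1 (chr10:103022264-103025152, minus strand): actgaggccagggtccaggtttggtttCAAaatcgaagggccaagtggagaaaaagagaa
Alx4 (chr2:93668648-93675337, plus strand): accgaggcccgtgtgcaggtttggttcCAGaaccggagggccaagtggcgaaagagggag

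Codon 50 was AAG, for lysine, in Pitx1, and it was CAG or CAA, both for glutamine, in the other 5 genes. Written from Prrx1 to Pitx1 this change is Q50K. The homeodomains of Prrx1 and Prrx2 shared 58 of 60 residues, with D33E and T41S as the changes from Prrx1 to Prrx2, while their homeoboxes shared 142 of 180 bases. Alx1 and Alx4 shared 55 of 60 residues, including 20 of the 20 shown above, and 138 of 180 bases. Pitx1 shared 58.3% to 65% of its homeodomain residues with each of the other 5, and Shox2 shared 58.3% to 70%.

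All 6 genes reached 1 TPM, the deposited length-scaled abundance, in both libraries, where 34.6% of all genes did so. They fell into 4 genes above 50 TPM in each library and 2 genes, Alx1 and Alx4, near 3 and 2 TPM. In whole tissue, fewer cells that express a gene and less of its RNA per cell cannot be told apart.

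Prrx1 (ENSMUSG00000026586.12, chr1:163245119-163313710, minus strand), whose enhancer is widely used to mark early limb mesenchyme, was the highest of the 6. It had 132.83 TPM in replicate 1 and 148.87 TPM in replicate 2, a mean of 141 ± 11.3 TPM (SD, n = 2), from 11596 and 17187 expected counts. By mean TPM it was gene 1177 of 43346. Its relative Prrx2 (ENSMUSG00000039476.9, chr2:30834972-30881251, plus strand) had 85.02 TPM in replicate 1 and 78.45 TPM in replicate 2, a mean of 81.7 ± 4.65 TPM from 1641 and 2073 expected counts. The 2 Prrx genes thus did not overlap in level, with Prrx1 higher in each library.

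Pitx1 (ENSMUSG00000021506.7, chr13:55825051-55836192, minus strand), the hindlimb factor, had 90.38 TPM in replicate 1 and 73.82 TPM in replicate 2, a mean of 82.1 ± 11.7 TPM from 4155.73 and 4436.76 expected counts. Replicate 1 had the higher TPM, while replicate 2, which was sequenced more deeply, had the higher expected count. Shox2 (ENSMUSG00000027833.12, chr3:66971727-66981771, minus strand), the gene of the proximal skeleton, had 51.11 TPM in replicate 1 and 54.27 TPM in replicate 2, a mean of 52.7 ± 2.23 TPM from 2724.94 and 3885.34 expected counts. Its values lay below those of the Prrx genes and Pitx1 in both libraries.

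Alx1 (ENSMUSG00000036602.9, chr10:102998707-103030215, minus strand) had 2.95 TPM in replicate 1 and 3.04 TPM in replicate 2, a mean of 2.995 ± 0.0636 TPM from 144 and 204 expected counts. Alx4 (ENSMUSG00000040310.8, chr2:93642384-93681339, plus strand) had 2.08 TPM in replicate 1 and 2.13 TPM in replicate 2, a mean of 2.105 ± 0.0354 TPM from 226 and 310 expected counts. The Alx genes rest on the fewest reads of the 6, and Alx4 had more counts than Alx1 but less TPM, because its transcripts are longer.

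**Figure D1:**
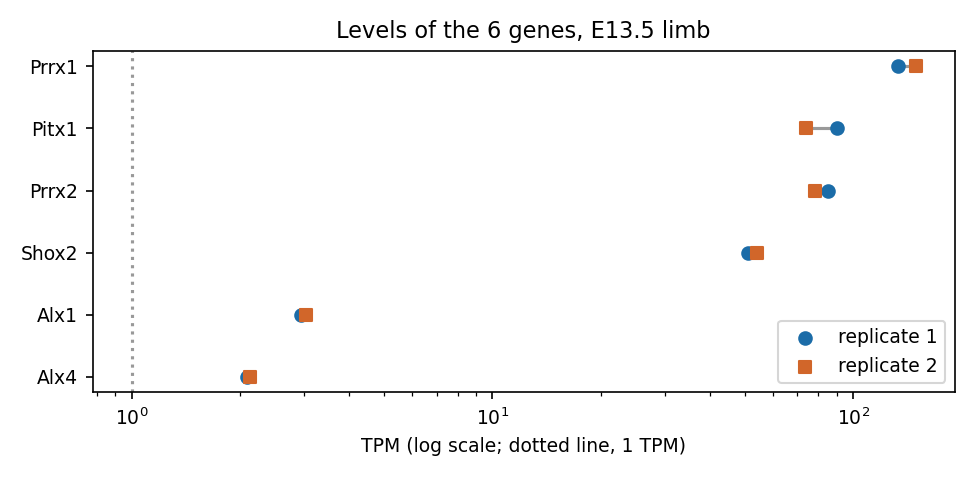
TPM on a log scale of the 6 genes in the E13.5 limb libraries, with circles for replicate 1, squares for replicate 2, a line joining them and a dotted line at 1 TPM. Prrx1, Pitx1, Prrx2 and Shox2 lie between 51.11 and 148.87 TPM, and Alx1 and Alx4 between 2.08 and 3.04 TPM.

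The order of mean levels was Prrx1, Pitx1, Prrx2, Shox2, Alx1 and Alx4. Each pair of genes was compared by the log2 ratio of TPM + 0.1 within a library. It was called past the spread where its sign was shared by the libraries and its mean exceeded 2 pair SDs. The pair SD is the root of the summed squares of the local SDs of the 2 genes. Each local SD is that of the replicate differences of genes of like abundance, divided by the square root of 2. By this measure 13 of the 15 pairs differed, and 3 of the 5 pairs of neighbours in the order did. The 15 pairs share genes and are not independent. No such share over pairs of all genes was computed, so these counts only describe the genes named. The SDs cover the spread between libraries and not bias of TPM between genes.

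Prrx1 stood 1.72-fold above Pitx1, with 1.47-fold in replicate 1 and 2.02-fold in replicate 2. It stood 1.72-fold above Prrx2 as well, with 1.56-fold in replicate 1 and 1.90-fold in replicate 2. Pitx1 and Prrx2 could not be ordered, since the log2 ratio of Pitx1 over Prrx2 was 0.09 in replicate 1 and -0.09 in replicate 2. Prrx2 was 1.55-fold above Shox2. The widest step between neighbours was that from Shox2 to Alx1, at 17.1-fold. Alx1 over Alx4 gave log2 ratios of 0.48 in replicate 1 and 0.49 in replicate 2, steady between the libraries but within the 1.03 that 2 SDs of such low genes span. From the highest gene to the lowest, Prrx1 over Alx4, the ratio was 63.8-fold.

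**Figure D2:**
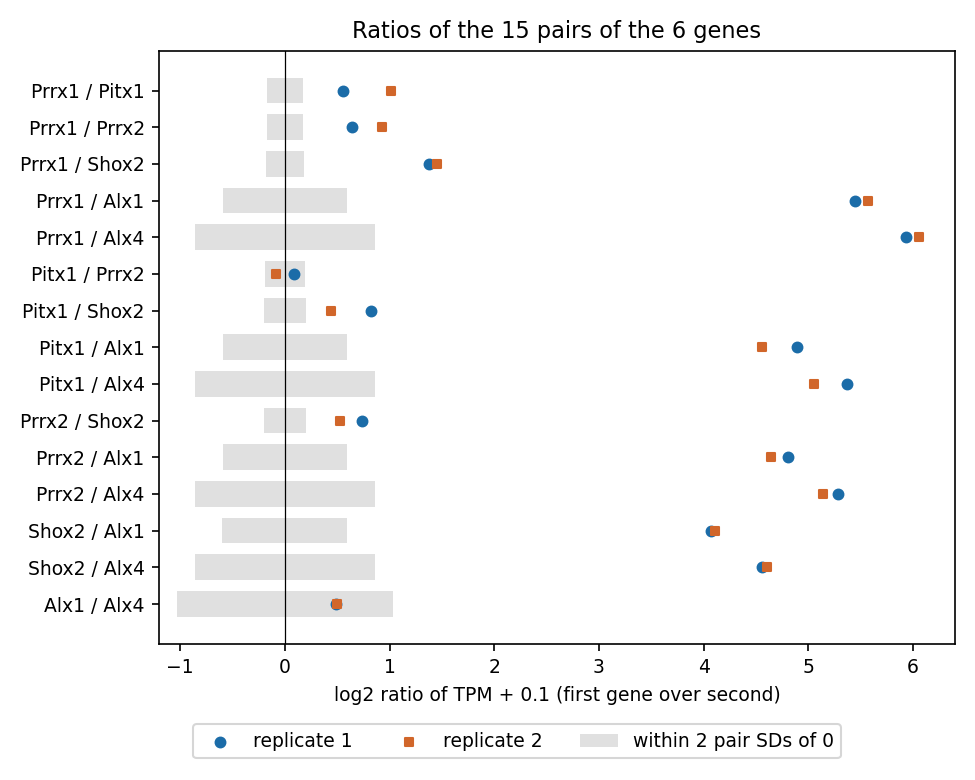
Log2 ratio of TPM + 0.1 for each of the 15 pairs of the 6 genes, first gene over second, with circles for replicate 1, squares for replicate 2 and grey bars for 2 SDs on either side of 0. Pitx1 over Prrx2 falls on both sides of 0 (0.09 and -0.09), Alx1 over Alx4 falls inside its bar, and the other 13 pairs lie outside theirs.

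The other genes of the class give these levels their setting. A list of 34 paired-class homeobox genes, the 6 included, was measured, and 11 of them reached 1 TPM in both libraries. Among the 28 other genes these were 5, or 17.9%. The 6 genes held 364.37 of the 419.32 TPM summed over the list in replicate 1, or 86.9%, and 360.58 of 416.76 TPM in replicate 2, or 86.5%.

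Of the 5 others, Gsc, or goosecoid, had 13.06 TPM in replicate 1 and 14.75 TPM in replicate 2. Pitx3, known from lens and midbrain, had 5.62 and 7.55 TPM in replicates 1 and 2, and came next above Alx1. Otx1, known from the forebrain, had 1.26 and 1.29 TPM and came next below Alx4. The highest gene under the 1 TPM mark was Pax3, which marks muscle progenitors and neural crest, with 0.92 TPM in replicate 1 and 0.80 TPM in replicate 2. A count of 0 in both libraries was listed for 4 genes of the list, for which 3 counts would be 0.0940 CPM in replicate 1 and 0.0695 CPM in replicate 2.

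Within the Pitx family, Pitx1 was 12.4-fold above Pitx3, with 15.8-fold in replicate 1 and 9.66-fold in replicate 2, past 2 SDs. This ratio was among 7 chosen after the levels had been seen.

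Between the libraries, Pitx1 was the member that differed beyond genes of like count. TMM-scaled expected counts with 0.5 added gave a log2 ratio of replicate 1 over replicate 2 of 0.34, or 1.26-fold, where 2 SDs of the 500 genes of nearest mean count were 0.18. Thus 1 of the 6 genes was past the spread, where 4.38% of the 17406 genes tested were, and 6 genes are too few to set their share apart from that. Prrx1 had a ratio of -0.14 with 2 SDs at 0.17, so it was not called. Taken on TPM the ratio of Prrx1 was -0.164, just past the 0.160 that 2 SDs span on that scale. Prrx2 had 0.09, Shox2 -0.08, Alx1 -0.07 and Alx4 -0.02 as log2 ratios, all within 2 SDs. Of the 6 genes, Pitx1 and Prrx2 were higher in replicate 1.

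**Figure D3:**
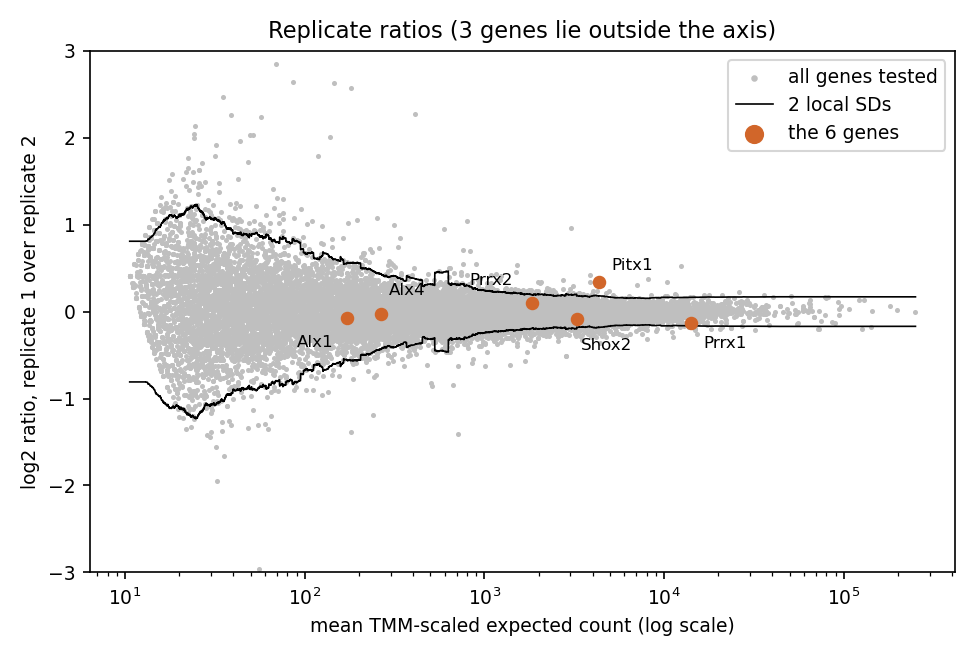
Log2 ratio of replicate 1 over replicate 2 against mean expected count, both from TMM-scaled counts, for the 17406 genes with 10 or more counts in each library (grey), with lines at 2 local SDs and the 6 genes in orange. Pitx1 lies above the upper line at 0.34 and the other 5 lie between the lines, and 3 genes fall outside the axis.

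The deposited TPM credibility intervals, which cover the estimate within a library and whose level the headers do not give, did not overlap for Pitx1, from 85.0 to 91.2 in replicate 1 and from 69.8 to 74.96 in replicate 2. They did not overlap for Prrx1 either, from 125 to 133 in replicate 1 and from 142 to 150 in replicate 2. For Prrx2, Shox2, Alx1 and Alx4 they did. Thus 2 of the 6 genes had intervals apart, where 10.1% of the 17406 genes with 10 or more counts in each library did. Both were among the 4 at 50 TPM or more in both libraries, and of all 3433 genes at that level 18.2% had intervals apart.

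Genes known for limb type stood beside Pitx1 as follows. Tbx4, the T-box gene that acts downstream of Pitx1 in the hindlimb, had 24.38 TPM in replicate 1 and 20.93 TPM in replicate 2, and its log2 ratio of 0.25 was past the 0.20 that 2 SDs span. Tbx5, the T-box gene of the forelimb, had 25.22 TPM in replicate 1 and 36.54 TPM in replicate 2, with a log2 ratio of -0.51, past the 0.20 that 2 SDs span. Isl1, which acts upstream in the early hindlimb field, had 4.27 and 5.75 TPM in replicates 1 and 2, with a log2 ratio of -0.69 past its 0.49. Pitx1 and Tbx4 thus were higher in replicate 1, and Tbx5 and Isl1 in replicate 2.

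All 8 genes of this limb type list reached 1 TPM, and the 3 named were those past the spread. Hoxc10, a hindlimb gene, had 9.38 and 9.20 TPM in replicates 1 and 2, and Hoxc11 had 2.12 and 1.79 TPM. The forelimb genes Hoxc4 and Hoxc5 also differed by less than 2 SDs. In each library Pitx1 was above both T-box genes, by 3.70-fold over Tbx4 and 3.57-fold over Tbx5 in replicate 1, and by 3.51-fold over Tbx4 and 2.02-fold over Tbx5 in replicate 2.

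Markers of liver and of mesenchyme also moved between the libraries. The liver genes Afp, Alb, Apoa1 and Ttr all were past the spread and higher in replicate 1, with 38.72 TPM in sum there and 5.66 TPM in replicate 2, and Afp had 22.34 and 1.73 TPM in replicates 1 and 2. Of 12 mesenchyme markers, all detected, 8 were past the spread and 7 of these were higher in replicate 2. Of 5 markers each of epidermis, muscle and red blood cells 1 was past it, and of 5 endothelial markers 0 were. The part of limb type, of liver RNA and of tissue composition in the difference of Pitx1 was not tested.

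**Figure D4:**
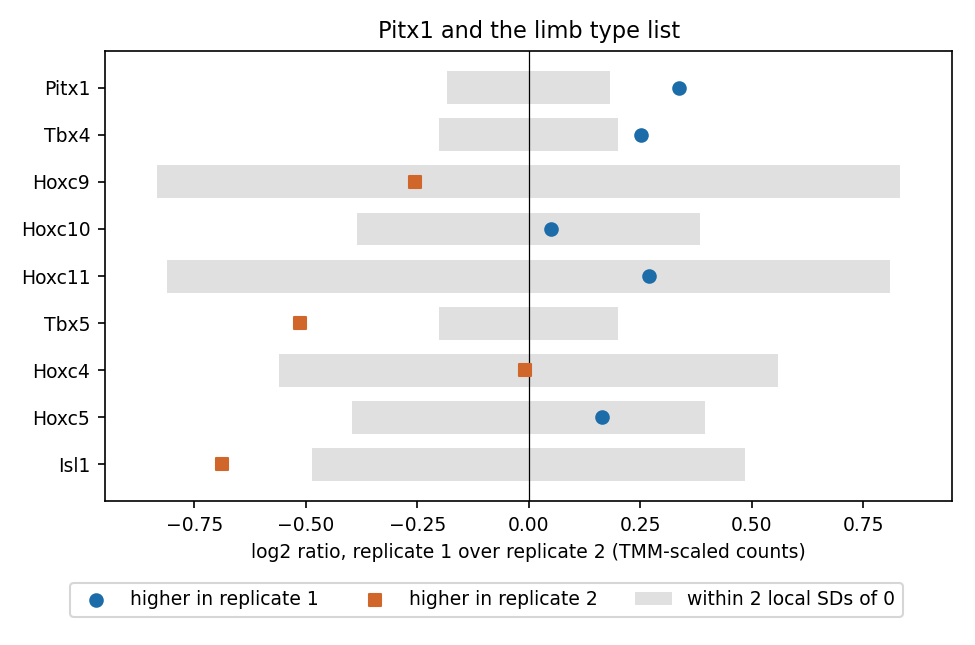
Log2 ratio of replicate 1 over replicate 2 of TMM-scaled expected counts for Pitx1 and the 8 genes of the limb type list, with blue circles for genes higher in replicate 1, orange squares for genes higher in replicate 2 and grey bars for 2 local SDs on either side of 0. Pitx1 (0.34) and Tbx4 (0.25) lie past their bars on the side of replicate 1, and Tbx5 (-0.51) and Isl1 (-0.69) on that of replicate 2.

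The transcript with the highest IsoPct, the deposited percent of a gene's TPM, was the same in both libraries for all 6 genes, as it was for 91.5% of the 10047 genes with several transcripts. The 6 genes split by how much that transcript held. Pitx1, Shox2 and Alx4 were dominated by a single form at 87.45% or more, Alx1 by one at 61.14% and 83.29%, and Prrx1 and Prrx2 spread their TPM over several forms. Of the 21 transcripts 16 are annotated as protein-coding, 15 held 5% or more in both libraries and 1 was at 0 in both.

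Prrx1 had 3 forms of similar share. Prrx1-201, which encodes 245 residues with the OAR motif, held 33.28% in replicate 1 and 35.14% in replicate 2. Prrx1-204, which encodes 200 residues without that motif, held 26.74% and 26.72% in replicates 1 and 2, and by share of expected counts it was the leading form, at 41.02% and 41.17%, since it is the longest. Prrx1-205, annotated as a processed transcript with no reading frame, held 28.73% and 29.36% in replicates 1 and 2.

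The other 2 forms of Prrx1 were minor. Prrx1-202, which encodes 217 residues without the OAR motif, held 9.36% and 7.13% in replicates 1 and 2, and the retained intron form Prrx1-203 held 1.89% and 1.64%. The proteins part after the homeobox, and the last 30 bases of each reading frame show where, with the stop codon in capitals.
Prrx1-201 (chr1:163248258-163248287, minus strand): cagaggaaccaggtgccaacagtcaacTGA
Prrx1-204 (chr1:163257757-163257786, minus strand): tcctgggggacagcctctccgtacaggTGA
Prrx1-202 (chr1:163253994-163254023, minus strand): ttacacgaggggcttcataacggattcTAA

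Prrx1-204 reads past the splice site used by the other 2 and stops 4 bases into what is intron for them, inside a last exon of 5077 bases. Prrx1-202 takes in an exon of 72 bases, at 163253977 to 163254048, whose stop codon comes before the exon that encodes the OAR motif. Among transcripts of Prrx1 whose reading frame holds a complete homeobox, those with the OAR motif held 47.96% of the TPM in replicate 1 and 50.93% in replicate 2. The coding forms with and without the tail were thus at nearly equal levels in both libraries.

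Prrx2 differed from Prrx1 in that its coding forms all keep the tail. Prrx2-201, of 247 residues, held 39.71% in replicate 1 and 48.81% in replicate 2. Prrx2-202, which starts from an exon farther upstream and encodes 175 residues, held 18.61% and 8.01% in replicates 1 and 2, from 320.1 and 168.77 expected counts. This was the largest shift of the gene, and the TPM intervals of Prrx2-202 still overlapped, from 10.3 to 21.8 in replicate 1 and from 0.928 to 10.6 in replicate 2. The retained intron forms Prrx2-203 and Prrx2-204 were steadier, at 26.84% and 28.69% for Prrx2-203 and 14.85% and 14.50% for Prrx2-204 in replicates 1 and 2.

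Transcripts annotated as not protein-coding held 30.62% of the TPM of Prrx1 in replicate 1 and 31.00% in replicate 2, and 41.69% and 43.19% of that of Prrx2. Over 9140 coding genes with several transcripts the median was 8.36%, with quartiles of 0.245% and 28.3%. By mean share 77.0% of these genes lay below Prrx1 and 84.7% below Prrx2. Pitx1, Shox2 and Alx4 have no such transcript in the tables.

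**Figure D5:**
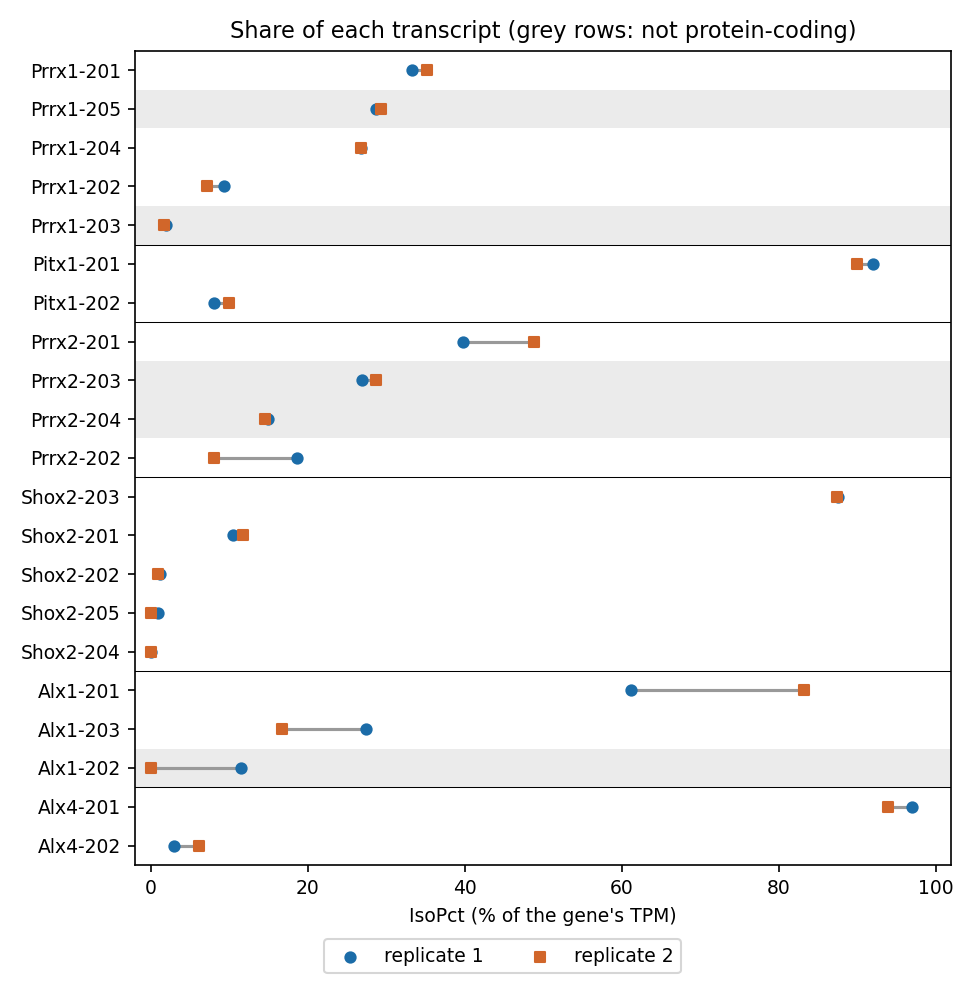
IsoPct, the percent of the gene's TPM, of each of the 21 transcripts, with circles for replicate 1, squares for replicate 2 and grey rows for transcripts annotated as not protein-coding. Prrx1 and Prrx2 are spread over several forms, the leading forms of Pitx1, Shox2 and Alx4 lie between 87.45% and 97.01%, and the widest gaps between libraries are those of the Alx1 forms and of Prrx2-201 and Prrx2-202.

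Pitx1-201, of 315 residues, held 91.97% in replicate 1 and 90.04% in replicate 2, and it was the one form of Pitx1 with a complete homeobox. Pitx1-202, whose reading frame is incomplete at its end and stops short of the complete homeobox, held the remaining 8.03% and 9.96%. The full form had 83.13 TPM in replicate 1 and 66.47 TPM in replicate 2, while Pitx1-202 had 7.25 and 7.35 TPM. The TPM intervals of Pitx1-202 ran from 5.11 to 9.31 in replicate 1 and from 5.43 to 9.25 in replicate 2. They are too wide to tell whether Pitx1-202 differed in the same proportion. The TPM intervals of Pitx1-201 did not overlap, as was also so for Prrx1-201 and Prrx1-204. These were 3 of the 17 transcripts of the 6 genes with 10 or more counts in each library, where 5.54% of all 39914 such transcripts had intervals apart. That background was not matched for level, and among genes the share with intervals apart was larger at 50 TPM or more.

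Shox2-203 held 87.50% in replicate 1 and 87.45% in replicate 2, although its annotated reading frame lacks a start codon. Shox2-201, of 331 residues, held 10.46% and 11.71% in replicates 1 and 2, and its last exon starts farther upstream, which adds 12 codons just after the exon junction. These bases are printed whole. The 2 forms also differ in their first exon, which is longer in Shox2-201, with 346 coding bases, than in Shox2-203, with 108.
Shox2-201 (chr3:66973908-66973943, minus strand): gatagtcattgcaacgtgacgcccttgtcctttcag

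The other forms of Shox2 were close to 0. Shox2-202 held 1.18% and 0.84% in replicates 1 and 2. Shox2-205 held 0.86% in replicate 1 from 2.88 expected counts and had none in replicate 2, where 3 counts would be 0.634%. Shox2-204 had none in either library, where 3 counts would be 0.287% in replicate 1 and 0.203% in replicate 2. By posterior mean TPM its share was 0.39% in replicate 1 and 0.33% in replicate 2. Its TPM intervals reached 0.571 in replicate 1 and 0.519 in replicate 2. Shares at 3 counts cover counting error only, not the division of reads among forms, and are no upper limits.

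Alx1-201, of 326 residues, held 61.14% in replicate 1 and 83.29% in replicate 2. Alx1-203, with the same coding bases and an added upstream exon, held 27.36% and 16.71% in replicates 1 and 2. The processed transcript Alx1-202 held 11.49% in replicate 1 from 10.68 expected counts and had none in replicate 2, where 3 counts would be 2.36%. By posterior mean TPM the share of Alx1-202 in replicate 2 was 7.64%, and its TPM interval there reached 0.610. The TPM intervals of each of the 3 overlapped between the libraries, from 0.385 to 2.39 in replicate 1 and from 1.58 to 2.86 in replicate 2 for Alx1-201. Alx4-201, of 399 residues with the OAR motif, held 97.01% and 93.91% in replicates 1 and 2, and Alx4-202, of 325 residues without it, held 2.99% and 6.09%.

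Set beside 500 genes of like count, a yardstick added after the shares had been seen, the largest change of IsoPct between the libraries differed from gene to gene. Alx1 moved by 22.15 percentage points, where like genes had a median of 10.5 and a 90th percentile of 25.9. Prrx2 moved by 10.6 points, where like genes had a median of 4.45 and a 90th percentile of 10.8. Prrx1 moved by 2.23, Pitx1 by 1.93, Shox2 by 1.25 and Alx4 by 3.1 points. None of the 6 was past the 90th percentile of its like genes.

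Counting only transcripts whose annotated reading frame holds a complete homeobox, as 15 of the 16 coding ones do, lowered the levels of the Prrx genes most. Prrx1-205 was left out for want of an annotated reading frame, although its exons contain all bases of the homeobox. The values of Prrx1 by this measure thus rest on the coding annotation. The counted forms made up 69.38% of Prrx1 in replicate 1 and 68.99% in replicate 2, or 92.16 and 102.7 TPM. They made up 58.32% of Prrx2 in replicate 1 and 56.82% in replicate 2, or 49.58 and 44.57 TPM. By this measure, added after the shares had been seen and set against the SDs of whole-gene TPM, 13 of the 15 pairs were past the spread, and 2 calls differed from those on whole-gene TPM. Pitx1, at 83.13 TPM in replicate 1 and 66.47 TPM in replicate 2, was now above Prrx2, by 1.68-fold in replicate 1 and 1.49-fold in replicate 2. Prrx2 no longer lay above Shox2, whose forms all hold the homeobox. The log2 ratio of Prrx2 over Shox2 was -0.04 in replicate 1 and -0.28 in replicate 2, with a mean of -0.16 inside the 0.20 that 2 SDs span, whereas on whole-gene TPM it was 0.73 and 0.53. Prrx1 stayed above Pitx1, by 1.11-fold in replicate 1 and 1.54-fold in replicate 2.

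Several of the 6 genes overlap others on the genome. The expected counts of Prrx1, Prrx2, Alx1 and Alx4 were whole numbers in both libraries, and those of Pitx1 and Shox2 were not. Shox2 shares 153 exon bases with Rsrc1, a splicing-factor gene on the opposite strand with 36.69 TPM in replicate 1 and 38.34 TPM in replicate 2. The counts of Shox2 and Rsrc1 summed to 4433 in replicate 1 and 6246 in replicate 2, whole within 0.01, so that reads had been divided between genes of opposite strand. The labels do not state the strand setting, but counting did not keep the strands of these genes apart.

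Pitx1 shares 108 exon bases with the non-coding gene Gm28760 on the same strand, which had 19.27 counts in replicate 1 and 15.24 in replicate 2. Their sums were likewise whole, 4175 in replicate 1 and 4452 in replicate 2. The antisense gene Gm47071 (chr13:55826250-56084849, plus strand) also overlaps Pitx1, and it was not among the genes measured. Its start lies inside the last exon of Pitx1-201. Since counting did not keep the strands of Shox2 and Rsrc1 apart, reads from Gm47071 on that exon may have been counted for Pitx1.

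Inside the span of Prrx1, without sharing an exon base, lies Gm26523, a long intergenic non-coding RNA gene on the same strand. It had 32.27 TPM in replicate 1 and 36.14 TPM in replicate 2, and Prrx1 was 4.11-fold above it in each library. The antisense gene Gm20471 in the same span had 8.29 and 8.85 TPM in replicates 1 and 2. Alx4 overlaps Ext2, a heparan sulfate synthesis gene on the opposite strand that shares no exon base with it and had 87.82 and 86.24 TPM in replicates 1 and 2, 39.5-fold above Alx4. Reads from unspliced Ext2 RNA and from Alx4 can fall on the same bases, and counting that does not keep strands apart, as at Shox2 and Rsrc1, cannot separate them. Prrx2 overlaps no gene, with Asb6 4639 bases and Ptges 8220 bases away.

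Genes that work with these factors were measured from lists as well. Of 9 cartilage genes around Shox2 all reached 1 TPM, and Runx2, which depends on Shox2 in the proximal limb, had 12.32 TPM in replicate 1 and 12.43 TPM in replicate 2, with Shox2 4.23-fold above it. In this list Sox5 was past the spread with the higher value in replicate 1, and Col2a1, the main cartilage collagen, was past it with the higher value in replicate 2. Of 8 genes of the anterior to posterior axis, on which Alx4 acts, 7 reached 1 TPM. Gli3, which represses the pathway in anterior mesenchyme, had 42.80 and 45.01 TPM in replicates 1 and 2, while Shh itself had 0.02 TPM in each. Etv5 was the one gene of this list past the spread, and it was higher in replicate 2.

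The tissue label was checked with markers. All 12 mesenchyme markers reached 1 TPM, among them Pdgfra with 88.27 TPM in replicate 1 and 103.54 TPM in replicate 2, as did 5 of 5 markers each of epidermis, muscle, endothelium and red blood cells. None of 5 forebrain and 4 heart markers did, and 2 of 4 liver markers did. The libraries therefore held several cell types, and the 6 genes were not assigned to any of them here.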

How the data were processed

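Total RNA of E13.5 mouse limb was measured in 2 libraries of 1 group. The authors deposited a gene and a transcript table per library on mm10 with GENCODE M4, per the labels and the file headers. The deposited expected counts are estimates that divide reads among transcripts, the deposited TPM scales them by effective length, and the deposited IsoPct gives, per transcript, the percent of gene TPM it holds, per the file headers. Other deposited columns hold posterior mean TPM and bounds of TPM credibility intervals. Neither the aligner nor the quantifier nor the strand setting is given in the sources used here.

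Symbols matched 42462 of 43346 genes. Spike-ins held 2.11% of counts in replicate 1 and 2.07% in replicate 2. Entries with bare numbers as names held 0.000226% and 0.000148% and were left out. Expected counts were rounded, and edgeR 4.0.16 under R 4.3.3 computed TMM factors and a coefficient of variation of 5.19% between libraries over 17441 genes. A chi-square of the counts over its degrees of freedom was 5.27, above the 1 of pure counting error. DESeq2 1.42.0 gave alternative size factors. Other steps used Python 3.11.15. The local SD came from the 500 genes of nearest abundance. For ratios between the libraries it used genes with 10 or more counts in each library, and this form was tested on simulated data. For pairs of genes it used all genes above 0 TPM in either library, with no count filter, and was taken about 0. A motif search of translated GENCODE M21 transcripts found the homeobox and the OAR core, and all 21 transcripts had the same length there. With 2 libraries of 1 group no test with a p-value was made.

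The genes and lists were chosen with earlier results of these data known. All 6 genes and their transcripts are named, as are paired-class genes at 1 TPM or the highest below it, overlapping or nearest genes, and up to 4 examples per list. The 7 ratios with relatives and neighbours, the comparison of IsoPct changes, the background of the intervals and the homeobox totals were added after values were seen. No likeness of pattern can be computed from 2 libraries, so neighbours in level within the paired class are given. Some paired-class genes are not reported here.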

Additional observations from a re-analysis of the deposited data

How the results depend on the processing

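No paired analysis was possible because there is a single group. Leaving out a library in turn gave 6 to 6 of the 6 genes at 1 TPM, 11 to 11 genes of the paired-class list and 13 to 13 pairs past the spread. The gene counts could not fall, since a gene at 1 TPM in both libraries is so in each. The pairs kept the SDs taken from both libraries and needed no shared sign, so their yardstick was not retested. Leaving out a library could not be done for ratios between the libraries or for the shared main transcript. On TPM + 0.1 in place of TMM-scaled counts, 2 genes were past the replicate spread, since Prrx1 at -0.164 joined Pitx1. The unordered pair Pitx1 over Prrx2 turned to -0.0056 on posterior mean TPM and gave -0.0876 without replicate 1 and 0.0881 without replicate 2. On CPM of the expected counts, which ignores length, Prrx2 over Shox2 turned to -0.82 and Alx1 over Alx4 to -0.62, Pitx1 over Prrx2 became 1.22 and past the spread, and all 15 pairs were past it. Of the 90 pair ratios 85 kept direction and call, as did 35 of the 36 replicate ratios. The median ratio of all genes was 0.000448 with TMM and -0.03 with spike-in scaling. The low counts of Alx1 and Alx4 limit their transcript shares.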
